A study of Rattus norvegicus with 24 samples.

Results

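The genes described here are the activating Ly49s genes of the rat natural killer gene complex (NKC) and Klra5, a Ly49 gene next to them. Members were the genes of the array's NKC list whose symbol is Ly49s followed by a number, or Klra5, and the genes named Ly49si were left out. This gave 7 genes of 7251 on the array, namely Ly49s3, Ly49s4, Ly49s5, Ly49s6, Ly49s7, Ly49s8 and Klra5, measured by 27 of its 8453 probes. Skin of 12 male BN rats aged 15 weeks was cultured either with syngeneic BN lymphocytes or with allogeneic lymphocytes of the PVG strain, both kept for 7 days beforehand with irradiated BN spleen cells, as a model of the graft versus host reaction. Both explants of a rat were hybridised together on 2 two-colour arrays with exchanged dyes, so each rat gave 1 log2 ratio of allogeneic over syngeneic. Unattached lymphocytes were washed off, and skin was measured together with whatever lymphocytes remained, so that fewer cells of a type and less RNA per cell cannot be told apart.

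Ly49 receptors are C-type lectin-like membrane proteins of natural killer (NK) cells and of some other leukocytes, and many bind MHC class I molecules. Inhibitory members carry a motif in their own tail that recruits phosphatases. Activating members lack it and signal through the adaptor DAP12, the product of Tyrobp, which engages kinases such as Syk. The genes arose by duplication and remain alike in sequence, so a probe for one can share much of its sequence with another. Activating Ly49 receptors of the rat are known for recognition of foreign MHC class I by NK cells.

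The array carried 5 custom probes of 60 bases for each of Ly49s4, Ly49s5, Ly49s6, Ly49s8 and Klra5, and 1 catalogue probe for each of Ly49s3 and Ly49s7. The files place the Ly49s7 probe at chr4:168958627-168958686 of build rn3, on the minus strand, and the Ly49s3 probe within chr4:168268665-168269096, and give the custom probes no position. The results turn on the probes of Ly49s8 and Klra5, so those that best show how the genes resemble and differ from each other are printed 5′ to 3′. Ly49s8 probe 4 and Klra5 probe 4 overlap by 57 bases and match at 55 of them, and capitals mark the 2 bases that differ within the overlap.
Ly49s8 probe 4: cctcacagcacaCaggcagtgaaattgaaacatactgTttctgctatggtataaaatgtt
Klra5 probe 4: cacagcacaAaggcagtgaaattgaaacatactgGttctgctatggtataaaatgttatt

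Probes 5 of the same genes overlap by 53 bases and match at 48, with an unbroken shared run of 37 bases, and capitals again mark the bases that differ.
Ly49s8 probe 5: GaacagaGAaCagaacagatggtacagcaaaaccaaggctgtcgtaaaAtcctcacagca
Klra5 probe 5: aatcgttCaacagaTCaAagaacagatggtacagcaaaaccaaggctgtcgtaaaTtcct

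The remaining Ly49s8 probes, Klra5 probe 3 and the Ly49s7 probe are shown because their responses differed, as given further on. No capitals are used in these.
Ly49s8 probe 1: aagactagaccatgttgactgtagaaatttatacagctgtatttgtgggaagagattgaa
Ly49s8 probe 2: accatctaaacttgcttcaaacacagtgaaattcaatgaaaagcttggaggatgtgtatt
Ly49s8 probe 3: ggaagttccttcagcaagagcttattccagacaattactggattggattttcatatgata
Klra5 probe 3: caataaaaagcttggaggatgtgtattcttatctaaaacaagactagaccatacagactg
Ly49s7 probe: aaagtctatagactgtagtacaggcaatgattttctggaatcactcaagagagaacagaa

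Each member probe was aligned without gaps with the probes of the other Ly49 genes, over at least 30 bases. The best match of Ly49s8 probe 1 held only 28 equal bases, with a Ly49si2 probe, and that of probe 2 held 39 of 58, with a Ly49si1 probe. Overlaps under 30 bases were examined for Ly49s8 probe 2 and Klra5 probe 3 only. There, over 27 bases, the end of Ly49s8 probe 2 matched the start of Klra5 probe 3 at 26 bases, with a shared run of 22. Klra5 probes 1 and 2 reached 26 equal bases each. Of all 27 member probes, 14 had at least 45 bases in common with a probe of another Ly49 gene, among them 4 of 5 for Ly49s6 and 3 of 5 for Ly49s4. The closest was Ly49s5 probe 5, with 57 of 58 bases equal to an Ly49i3 probe. How much RNA of one gene the probes of another bound was not tested, and the values of these genes are uncertain to that extent. In the current rat annotation (GRCr8, RefSeq) Ly49s7 and Klra5 overlap each other, and Ly49s4 is listed as a transcribed pseudogene.

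Between 75.5% and 99.9% of all probes were well above background on an array, depending on the array and the dye. Array 1 of rat 10 stood apart, with a median log2 intensity of 12.9 against 7.69 to 8.04 on the other 23 arrays, so results are also given without it. None of the 9 keratinocyte markers chosen for the check was on the array, so the skin identity of the explants could not be checked with them. Of the 27 member probes, 22 gave a signal well above background in at least 1 sample type on 12 or more of the 24 arrays, and 9 did so on all arrays in both. The Ly49s7 probe, Ly49s8 probe 1 and Ly49s5 probe 3 were near background, each well above background on 1 of 24 arrays for either sample type.

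Klra5 RNA was lower in the sample labelled allogeneic. Directions follow the dyes given for the samples and are opposite to those the study describes for its regulated genes, Ly49 and others alike. Every signed value here would turn over if the dye labels were exchanged. In the study's quantitative PCR on part of the same sample pairs, most genes tested went in the published direction, among them Aif1, Ly49si1 and Ly49i9. No member was measured in that PCR, and whether the dye labels are right was not tested here. Lower and higher refer throughout to the samples as labelled. Over the 12 rats the log2 ratio of Klra5, as the mean of 5 probes, ranged from -0.97 to 0.23 with a median of -0.61. The value was below 0 in 10 rats and above 0 in rat 8 (0.11) and rat 11 (0.23), and rat 9 was lowest. The mean was -0.45 ± 0.37 (SD, n = 12), a level 0.731 of the syngeneic one, with an adjusted p of 0.00849 (limma). In the scanner software's processed signals, which carry no added offset, the mean was -1.07, and it was -0.68 when the offset was lowered from 50 to 10, so the size of the change depended on the treatment of background.

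Ly49s8, an activating receptor gene by name, was lower too. Its log2 ratio ranged from -0.64 to 0.13 with a median of -0.42, and it was below 0 in the same number of rats, 10 of 12. The rats above 0 were again rat 8 (0.10) and rat 11 (0.13), each on both of its arrays. The mean was -0.31 ± 0.26 (SD, n = 12), with an adjusted p of 0.0112 (limma), and the processed signals gave -1.05.

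**Figure D1:**
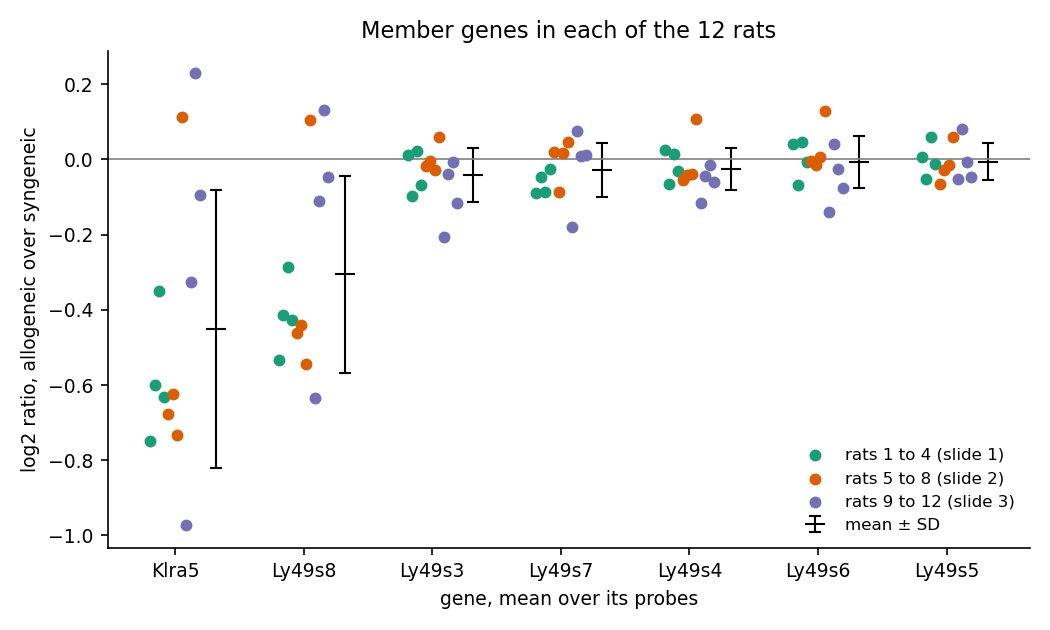
Log2 ratio of allogeneic over syngeneic for each member gene (mean over its probes) on the vertical axis, with 1 point per rat coloured by slide and a bar for the mean ± SD of 12 rats. Klra5 and Ly49s8 lie below 0 in 10 of 12 rats, while the other 5 genes gather around 0.

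The remaining 5 genes had mean log2 ratios between -0.041 and -0.0062, and none passed the test. Ly49s3 was at -0.041 ± 0.072 (SD, n = 12; adjusted p = 0.246, limma) and was below 0 in 9 rats. Ly49s7 was at -0.028 ± 0.072 (adjusted p = 0.450, limma), with 6 rats on either side of 0 and a signal near background. Ly49s4 was at -0.027 ± 0.056 (adjusted p = 0.365, limma), Ly49s6 at -0.0068 ± 0.069 (adjusted p = 0.870, limma) and Ly49s5 at -0.0062 ± 0.049 (adjusted p = 0.846, limma). Thus 2 of 7 genes were called lower and 0 higher, where 7.56% of all genes were called lower and 16.2% in either direction. The median over all genes was 0.012.

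In the order of their means, genes next to each other were compared within rats by an exact two-sided sign-flip permutation test, with adjustment over the 6 pairs. The order came from the same values, so the pairs were not chosen independently of them. Klra5 minus Ly49s8 was -0.15 ± 0.12 (SD), with Klra5 the lower in 10 of 12 rats (adjusted p = 0.0190). This difference was not found in the processed signals (-0.023 ± 0.10, adjusted p = 0.529 in the same permutation test), and it turned with the brightest probe of each gene (0.28 ± 0.29, adjusted p = 0.0186). In the deposited table Klra5 was the lower (-0.10 ± 0.061, adjusted p = 0.00293 in the same permutation test). The Ly49s8 mean includes its probe 1, which was near background. With dim probes removed, Ly49s8 was at -0.39 and Klra5 at -0.45, and the pair was not compared under that filter. Ly49s8 minus Ly49s3 was -0.26 ± 0.24, with Ly49s8 the lower in 9 of 12 rats (adjusted p = 0.0190). The other 4 pairs, from Ly49s3 to Ly49s5, did not differ beyond the spread between rats, with adjusted p values of the same permutation test from 0.0938 to 0.966. Of these, Ly49s4 minus Ly49s6 passed that test in processed signals, the deposited table and with an offset of 10 (adjusted p = 0.0498, 0.0459 and 0.0420). With the brightest probe it passed with its sign turned (0.097 ± 0.15, adjusted p = 0.0186 in the same permutation test).

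Among single probes, 10 of 27 were called lower and 0 higher (37.0%), where 8.48% of all probes were called lower and 17.3% in either direction. These 10 were all 5 probes of Klra5, 4 of Ly49s8 and 1 of Ly49s4. The median log2 ratio over the 27 probes was -0.051, against 0.011 over all probes.

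The 5 Klra5 probes had mean log2 ratios from -0.57 (probe 1) to -0.30 (probe 2). Adjusted p values ran from 0.00398 to 0.0215 (limma), and each probe was below 0 in 10 rats. Probe 2 was higher than the mean of the other probes by 0.19 ± 0.17 (SD, n = 12; exact sign-flip permutation test, adjusted p = 0.0227 over 25 probes). Probe 3 minus the others was -0.095 ± 0.086 (adjusted p = 0.0227 in the same permutation test). Probe 3 was well above background on 6 arrays for the allogeneic and on 20 for the syngeneic sample, and probe 5 on 5 and 21. Detection did not differ in this way for probe 4 (22 and 21 arrays) or for probes 1 and 2 (24 and 24). Probe 3 had a median log2 intensity of 6.53 (6.40 to 7.24) in the allogeneic and of 7.22 (6.24 to 7.53) in the syngeneic sample. The ranges of the sample types overlapped.

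A further catalogue probe named Klra5 is not on the NKC list and played no part in the choice of members. It lies at chr4:168991809-168991868 of build rn3, and the files assign it to transcripts of both Klra5 and Ly49s7. Its log2 ratio ranged from -1.95 to 0.55 with a median of -1.25, and it too was above 0 in 2 rats. The mean was -0.90 ± 0.81 (SD, n = 12; adjusted p = 0.0133 over all probes, limma). Across the 12 rats it followed the mean of the 5 listed probes, with r = 0.991 as a description of values from the same arrays. The probe listed for Ly49s7 itself, which was near background, had a mean of -0.028, and of -0.30 in the processed signals (adjusted p = 0.114, limma).

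The Ly49s8 probes were less uniform. Probe 3 had a mean of -0.58 ± 0.53 (SD, n = 12), ranging from -1.21 in rat 9 to 0.35 in rat 11, with an adjusted p of 0.0131 (limma). In the processed signals it was at -1.32 and probe 2 at -1.74. Probes 2, 5 and 4 had means of -0.36, -0.32 and -0.28, with adjusted p values of 0.00755, 0.00415 and 0.0108 (limma). Probe 1 was at 0.017 ± 0.083 (adjusted p = 0.692, limma) and differed from the mean of the other probes by 0.40 ± 0.29 (exact sign-flip permutation test, adjusted p = 0.0227). Probe 1 was the one near background in both sample types, whereas probe 2 was well above background on 3 arrays for the allogeneic and on 18 for the syngeneic sample. The lower probes were thus 4 and 5, which share most of their bases with Klra5 probes, probe 2, which shares its end with one, and probe 3. Probe 3 matched a Ly49si1 probe at 29 of 33 bases, and Ly49si1 was at -1.48. By the printed bases, the start of probe 1, which was not called, also resembles the end of Klra5 probe 3. Whether shared sequence goes with the response of a probe was not tested.

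For Ly49s4, only probe 2 was called, at -0.056 ± 0.046 (SD, n = 12) and below 0 in 10 rats, with an adjusted p of 0.0312 (limma). Its log2 ratio ranged from -0.14 to 0.026. The call was lost without 6 of the 12 rats taken singly (rats 1, 2, 5, 9, 11 and 12; adjusted p 0.0555 to 0.0685, limma) and with slide as a block (adjusted p = 0.0514, limma). Probes 4 and 5 of the same gene were at 0.024 and 0.014, and probe 4 was higher than the mean of the others by 0.063 ± 0.10 (exact sign-flip permutation test, adjusted p = 0.0259). For Ly49s5 and Ly49s6 no probe passed the test, with means from -0.074 to 0.066. In all, 9 of the 25 probes of genes with several probes differed from the rest of their gene. Each probe was set against the mean of the others, so a single deviating probe can make other probes of its gene differ.

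**Figure D2:**
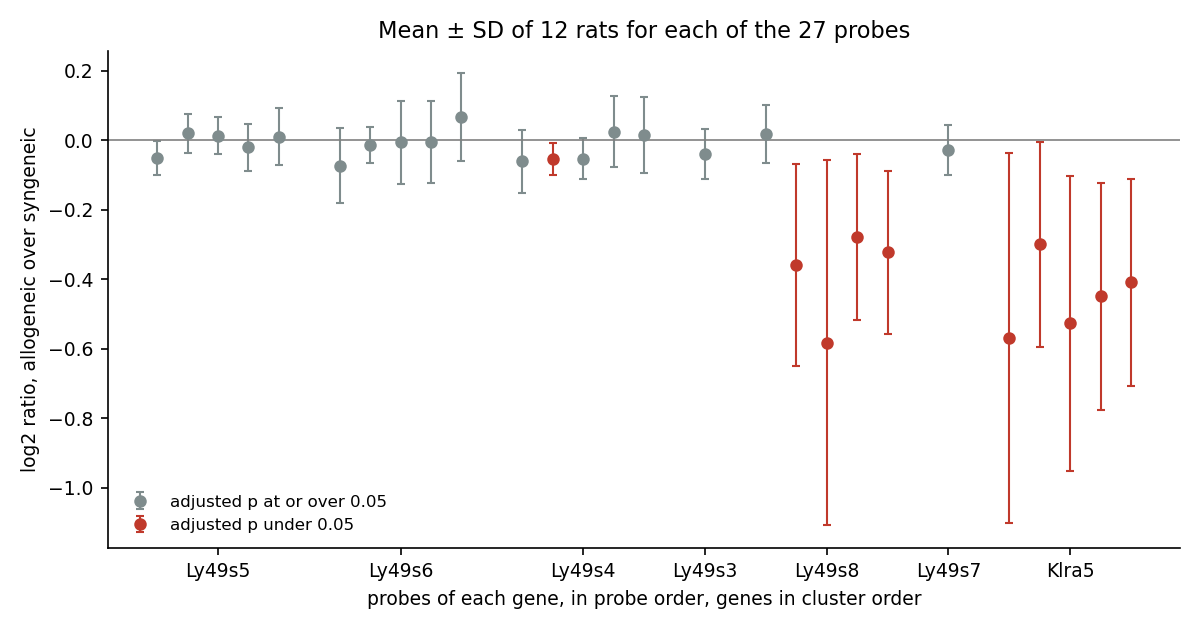
Mean log2 ratio of allogeneic over syngeneic, with SD over 12 rats as error bars, for each of the 27 member probes in cluster order of their genes. The 5 probes of Klra5 and 4 of the 5 of Ly49s8 stand below the rest, and Ly49s8 probe 1 stays at 0.017.

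The 2 arrays of a rat carry the same RNA with exchanged dyes, so that a dye effect shows as a difference between them. For Klra5 the turned log2 ratio was -0.37 ± 0.41 (SD, n = 12) with the allogeneic sample in Cy5 and -0.54 ± 0.38 with it in Cy3, a difference of 0.17 ± 0.27 (exact sign-flip permutation test, adjusted p = 0.0103 over 7 genes). Klra5 probe 2 alone was at 0.0051 in the first orientation (adjusted p = 0.964, limma) and at -0.60 in the second. Ly49s6, Ly49s4, Ly49s3 and Ly49s5 also differed between orientations, by 0.032 to 0.058, in the same permutation test (adjusted p 0.00342 to 0.0485). These differences were larger in size than the mean ratios of those genes. For Ly49s8 the orientations gave -0.29 and -0.32 and differed by less than the spread between rats (adjusted p = 0.995 in the same permutation test), and rat 10 was at 0.29 on its bright array and at -0.51 on the other. Klra5 in rat 10 was at 0.18 and -0.83 on the same arrays. Without rat 10, the Klra5 arrays differed by 0.095 ± 0.080 and the Ly49s8 arrays by -0.040 ± 0.054 (exact permutation test, adjusted p = 0.0188 for each). The Ly49s5 arrays then no longer differed (adjusted p = 0.0809 in the same permutation test). Without the bright array alone, Klra5 was at -0.49 and Ly49s8 at -0.34, and 12 member probes were called.

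**Figure D3:**
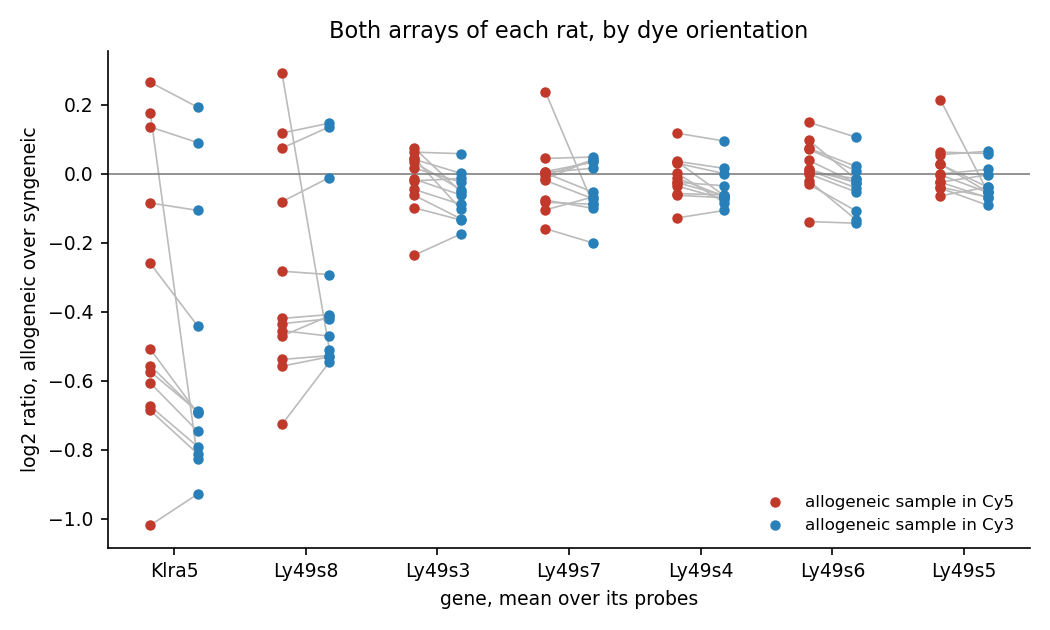
Log2 ratio of allogeneic over syngeneic of each member gene on both arrays of each rat, joined by a line, with the allogeneic sample in Cy5 at left and in Cy3 at right. The longest lines of Klra5 and Ly49s8 belong to rat 10, at 0.18 and -0.83 for Klra5 and at 0.29 and -0.51 for Ly49s8.

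The 12 rats were hybridised on 3 slides with 4 rats each, and both sample types were on every slide. The mean of Klra5 was -0.58, -0.48 and -0.29 on slides 1, 2 and 3, and that of Ly49s8 was -0.42, -0.34 and -0.16. Both genes were thus lower on every slide, and their calls held with slide as a block (adjusted p = 0.0142 and 0.0155, limma).

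Across rats, Klra5 and Ly49s8 moved together (r = 0.987, n = 12; both come from the same arrays and some of their probes share sequence). Neither followed the remaining members as closely, with r for Klra5 from 0.396 (Ly49s6) to 0.596 (Ly49s7). Ly49s3, Ly49s4 and Ly49s6 had r from 0.846 to 0.906 between them, and Ly49s5 had r = 0.774 with Ly49s6. Their mean ratios lay near 0, and some of their probes share sequence as well. The Ly49s3 probe matched Ly49s4 probe 2 at 50 of 56 bases, and probes 5 of Ly49s4 and Ly49s6 matched at 55 of 59.

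By the correlation of rat values over the 12 rats, among 6326 other genes with a detected probe on 12 or more arrays, the genes most like Klra5 were Ly49si3, Ly49si1, Ly49si2, Ly49i9 and Ly49i3 (r 0.910 to 0.941). Those most like Ly49s8 were Ly49si3, Ly49i9, Ly49si1, Ly49si2 and the olfactory receptor gene Or8h6 (r 0.920 to 0.936). The Ly49 genes among them were all called lower, with mean log2 ratios from -2.28 (Ly49i9) to -0.37 (Ly49i3). The likeness held in pattern and not in size, since Ly49si1 was below 0 in all rats, and reached its highest value of -0.039 in rat 8. In rat 11, where Klra5 was highest at 0.23, Ly49si1 was at -0.57 and Ly49i9 at -1.33. The genes most like Ly49s4 were LOC289485, Tnip2, Ptprc, Sp110 and Plxnc1 (r 0.912 to 0.942), of which Ptprc, the gene of the leukocyte phosphatase CD45, was called (-0.78, adjusted p = 0.0495, limma). These values share their arrays, and likeness is given here as a description.

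**Figure D4:**
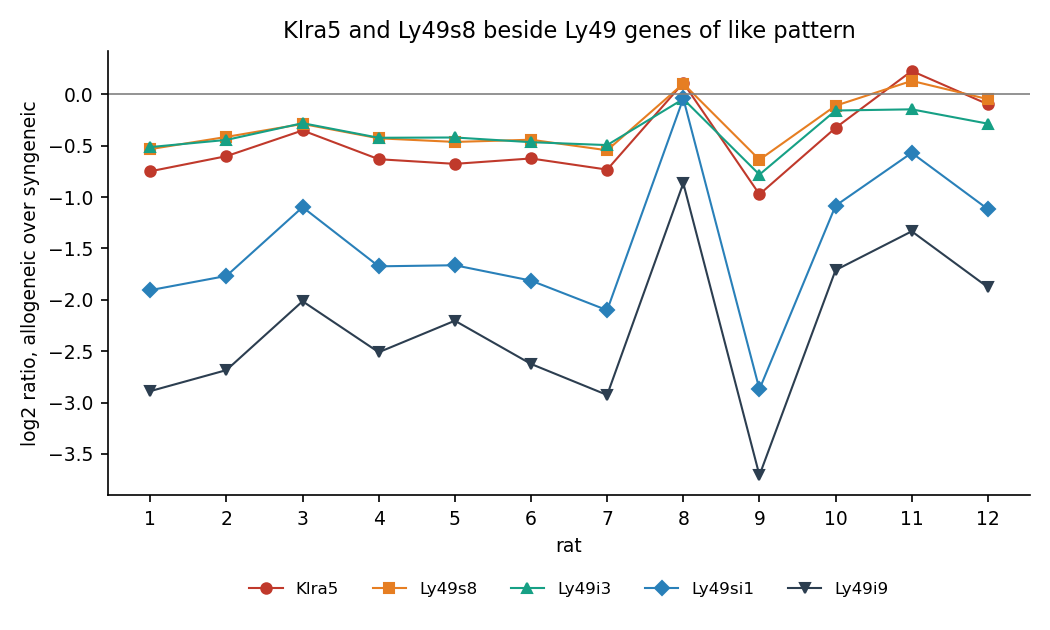
Log2 ratio of allogeneic over syngeneic in each of the 12 rats (horizontal axis) for Klra5, Ly49s8 and 3 of the Ly49 genes most like them, each as the mean over its probes. All lines rise in rats 8 and 11 and fall in rat 9, and only Klra5 and Ly49s8 pass above 0.

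Ly49s5, Ly49s6, Ly49s4 and Ly49s3 follow on the group of LOC690045, Ly49si3, Ly49si1, Ly49si2 and Ly49i9. The mean log2 ratios of that group ran from -1.16 to -2.28, while these members stayed between -0.041 and -0.0062. Ly49i5 (-0.032) and Klra22 (-0.0062) lie between Ly49s5 and Ly49s6. Between Ly49s3 and Ly49s8 lie further Ly49i genes, of which Ly49i3 was called lower (-0.37). Ly49s8 and Klra5 flank Ly49s7 at the other end. The next gene after Klra5, Ly49i7, was called lower (-0.28 ± 0.20, SD, n = 12; adjusted p = 0.0047, limma), and the gene before Ly49s8, Ly49i6, was at -0.058 (adjusted p = 0.0803, limma).

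**Figure D5:**
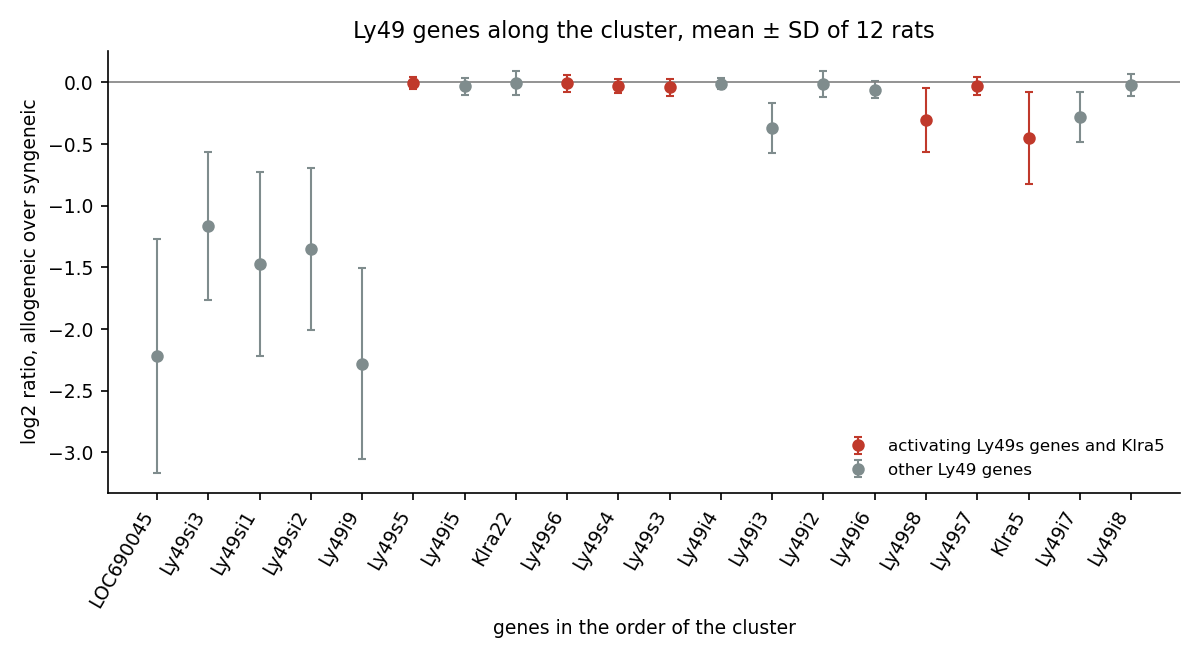
Mean log2 ratio of allogeneic over syngeneic, with SD over 12 rats as error bars, for the Ly49 genes in the order of the cluster, the activating Ly49s genes and Klra5 in red. The members run near 0 except for Ly49s8 and Klra5, and the values of Ly49si and Ly49i9 at the left are lower than those of any member.

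Signalling genes of activating receptors, together with the phosphatase genes Ptpn6, Ptpn11 and Inpp5d, were considered as 1 list of 24, of which 19 were on the array. Of these, 9 were called lower, 2 higher and 8 did not pass the test (median log2 ratio -0.079, against 0.012 over all genes, of which 16.2% were called). Tyrobp, which encodes the adaptor of the activating Ly49 receptors, was lower, at -0.71 ± 0.32 (SD, n = 12; adjusted p = 0.000236, limma), and was below 0 in all 12 rats. The kinase gene Syk was at -0.46 and Vav1, an exchange factor of leukocytes, at -0.85, each below 0 in 12 rats. Lcp2, the adaptor SLP-76, was at -0.78. Lck, a kinase of T and NK cells, was at -0.70. Of the phosphatases that act downstream of inhibitory receptors, Ptpn6 (-0.41) and Inpp5d (-0.49) were called lower, and Ptpn11 was at -0.0070 (adjusted p = 0.861, limma). Plcg1 was higher (0.29) and Plcg2, its relative in blood cells, lower (-0.24). Vav2 was higher (0.10). Rat by rat, the list's mean did not follow Klra5 (r = 0.050 and rho = -0.028, n = 12, as a description), and it was below 0 in all 12 rats. Which cells the RNA of these signalling genes came from was not tested.

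The NK cell list held 17 genes, of which 14 were on the array. Called lower were 5, namely Gzmb (-0.69), Il2rb (-0.63), Nkg7 (-0.31), Klrb1a (-0.12) and Tbx21 (-0.075), where 7.56% of all genes were called lower, and 9 did not pass the test, among them the NK cell receptor genes Ncr1 (-0.0054) and Klrk1 (-0.010) and the perforin gene Prf1 (-0.080). Gzmb, Il2rb and Nkg7 are used by T cells too. The summed intensity of the list ran from 2519 to 5562 in the allogeneic and from 2628 to 5985 in the syngeneic samples, and was lower in the allogeneic sample in 12 of 12 rats. Rat by rat, the list's mean did not follow Klra5 (r = -0.28 and rho = -0.45, n = 12, as a description), and it was below 0 in rat 8 (-0.097) and rat 11 (-0.29), where Klra5 was above 0.

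Of the 9 T cell markers 4 were called lower and 0 higher (median -0.26), with Cd5 at -0.97 and Cd8b at -0.49. The other 5 did not pass the test, namely Cd3g (-0.40), Cd3d (-0.16), Cd3e (-0.11), Cd4 (-0.045) and Cd28 (-0.018). Cd247, the CD3 zeta chain gene of the signalling list, was at -0.074 (adjusted p = 0.289, limma). The study reports the CD3 zeta chain RNA as higher in allogeneic explants by quantitative PCR. Over all genes, 7.56% were called lower and 16.2% in either direction. Of 6 macrophage markers on the array 3 were called lower (median -0.34), namely Fcgr3a (-2.19), Aif1 (-1.27) and Csf1r (-0.22). The other macrophage markers did not pass the test, with Mrc1 at -0.46, Cd14 at 0.011 and Cd163 at 0.18. Cd163 was above 0 in 9 of 12 rats. The study describes Fcgr3a and Aif1 in the opposite direction, as it does the Ly49 genes that it reports as regulated. Its text names neither Klra5 nor any Ly49s member among those. It states that the Ly49 genes found up-regulated were only ones with the inhibitory tail motif. The study called genes by a mixed-effects analysis of variance with its own rules on size and share of probes, unlike the calls here. In the deposited table, Klra5 was at -0.88 and Ly49s8 at -0.78 (adjusted p = 0.00881 and 0.0152, limma). The summed intensity of the T cell list was 2158 to 4181 in the allogeneic and 2683 to 6238 in the syngeneic samples, and was lower in the allogeneic sample in 10 rats. That of the macrophage list was 6980 to 22402 and 8560 to 34113, and was lower in 11. The mean of the macrophage list had r = 0.54 with Klra5 over the 12 rats, and that of the T cell list r = -0.14. The part of these cell types in the values of Klra5 and Ly49s8 was not tested.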

How the data were processed

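RNA of 12 pairs of explants was amplified and hybridised on 24 two-colour Agilent arrays. The authors' scanner files (Agilent Feature Extraction 9.5.1.1) hold, as deposited, the raw intensity of each spot in Cy3 and Cy5 with its local background, and a processed intensity. The deposited series table holds log2 ratios that the authors normalised by loess. It runs in the direction of the turned processed ratios (r 0.707 to 0.955 per array), and its background treatment is not given in the sources used here. Here, raw intensities were corrected by normexp with an offset of 50 (limma 3.58.1, R 4.3.3), which pulls ratios of weak spots towards 0, and normalised by loess within arrays. Control and outlier spots (178 to 258 of 15744 per array) were left out. Spots of a probe were averaged, swapped arrays were turned, and both arrays of each rat were combined as a mean, giving n = 12.

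Ratios were tested against 0 with limma and Benjamini-Hochberg adjustment over 8453 probes, or over 7251 genes as means of their probes, at a threshold of 0.05. Genes were named from the NKC and MHC lists, then by RefSeq accession (4268 probes), then by the files, with suffixes for predicted genes removed. Differences within rats were tested by the exact two-sided sign-flip permutation test, whose smallest p with 12 rats is 0.000488. The number of arrays limits the precision, and no saturated spot belonged to a member. The tests were checked on simulated data. The named genes were all members and their probes, the listed signalling, NK cell, T cell and macrophage genes, the 5 genes most like each member with a called probe, and the other Ly49 genes. Members and lists were chosen with earlier results of these data known. Alternatives covered background, normalisation, dye orientation, dim probes, outlier spots, slide, test, rat as a block, deposited table, probe summary and each rat left out.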

Additional observations from a re-analysis of the deposited data

How the results depend on the processing

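Klra5 and Ly49s8 kept their direction and their call under every alternative run, including each rat left out (Klra5 -0.51 to -0.40, Ly49s8 -0.34 to -0.28) and without array 1 of rat 10. Over the other alternatives Klra5 ranged from -1.07 (processed signals) to -0.30 (brightest probe) and Ly49s8 from -1.05 to -0.29. Called member genes numbered 2 throughout, except 3 with the allogeneic sample in Cy3 only, where Ly49s3 was called (-0.064, adjusted p = 0.0372, limma). Called member probes numbered 9 to 15, and 9 to 11 with a rat left out. Neighbouring genes that differed numbered 2 or 3 with a rat left out, and 2 or 3 under the 5 other treatments of values added after the data were seen. The pairs that differed were not always the same. Klra5 and Ly49s8 did not differ in processed signals, and their order turned with the brightest probe. Ly49s4 and Ly49s6 differed in processed signals, in the deposited table, with an offset of 10 and, in turned order, with the brightest probe. The genes with an orientation difference numbered 4 by the signed-rank test and 5 without rat 10, also added afterwards. The listed signalling and NK cell genes called numbered 16, and 16 or 17 under the 4 alternatives of background and normalisation, which were the only ones run for them. With rat as a random replicate block on 24 arrays, 11 member probes were called in place of 10, and the block changed no call of a member gene.

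Reversals touched values near 0 or a single orientation. With the allogeneic sample in Cy5 only, Ly49s5 was at 0.016, Ly49s6 at 0.022 and Klra5 probe 2 at 0.0051. Ly49s4 was at 0.024 by its brightest probe, and Ly49s6 at 0.0054 without rat 9 (-0.019 to 0.0054 over the rats left out). Ly49s8 probe 1 was at -0.10 in processed signals, -0.028 after median centring, -0.0038 with the allogeneic sample in Cy3 only, -0.0060 without array 1 of rat 10 and -0.0041 without rat 10 (-0.0041 to 0.024 over the rats left out). The call of Ly49s4 probe 2 was also lost in processed signals (adjusted p = 0.0687, limma) and with Cy5 arrays only (adjusted p = 0.0960, limma). The causes were not tested. Weak signal limits Ly49s7 (-0.30 in processed signals, -0.17 in the deposited table, -0.096 after median centring) and Ly49s8 probe 1. Both were removed by the filter on dim probes and have no value under it.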
